A study of Rattus norvegicus with 28 samples.

Results

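The genes described here are 10 heat shock proteins and chaperones: Hspb1, Hspb8, Cryab, Hspa1a, Hspa1b, Hspa5, Hspa8, Hsph1, Dnajb1 and Bag3. They were taken as a list by name, and a probe belonged to a gene when its accession mapped to that gene's rat symbol in RefSeq. Of the 10 genes, 7 had a matching probe, with 10 probes in all among 30367 non-control probes of the array (15637 named genes). Each of the 10 probes was well above background on all 14 arrays and was kept for testing. Hspa1a, Hspa1b and Dnajb1 matched no probe and were not analysed here. Hspa8 was measured by 4 probes, of which the brightest stood for the gene and the other 3 are given beside it. The remaining 6 genes had 1 probe each.

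The RNA came from the whole hippocampus of adult male Sprague-Dawley rats, 1 rat per array, collected 24 h after surgery. Sham rats (n = 2) were prepared for injury but not injured. TBI rats (n = 3) received a severe fluid-percussion traumatic brain injury. TBI+Imipramine, TBI+Prozac and TBI+Zoloft rats (n = 3 each) received the same injury and, 1 h later, 10 mg/kg i.p. of imipramine (a tricyclic antidepressant), Prozac (fluoxetine) or Zoloft (sertraline). Fluoxetine and sertraline are selective serotonin reuptake inhibitors of different structure, and the methods give a vehicle to the rats without drug. The design asks what injury does to each transcript and whether an antidepressant given after injury moves it.

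Heat shock proteins keep other proteins folded. The small heat shock proteins Hspb1, Hspb8 and Cryab hold unfolding proteins so that they do not aggregate, and astrocytes make much of the Hspb1 and Cryab found in injured or diseased brain. The HSP70 proteins refold clients in cycles of ATP hydrolysis: Hspa8 is the constitutive cytosolic form, Hspa1a and Hspa1b are the strongly inducible forms, and Hspa5 (BiP, GRP78) works inside the endoplasmic reticulum. Dnajb1 is a J protein that hands clients to HSP70, Hsph1 (HSP110) and Bag3 release nucleotide from HSP70, and Bag3 also joins Hspb8 in passing clients to autophagy. Many of these genes are turned on by heat shock factor 1, which binds inverted repeats of the pentamer NGAAN (the heat shock element), whereas Hspa5 is turned on by the unfolded protein response through the endoplasmic reticulum stress element.

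The stretch just before the start of a gene is where these elements usually lie, so the 250 bases before the start were read from RefSeq promoters (build GRCr8) for the members that the table holds, 8 of 10, of which 6 were also measured. Shown are Hspb1 and Hspb8, the members that rose after injury, then Hspa8 and Hsph1, which hold the full heat shock element, and Hspa5, which holds the other element. Each runs 5′ to 3′ toward the start, with capitals marking the letters of a match named in the next paragraph. They lie at chr12:26432302-26432551 on the minus strand (Hspb1), chr12:45837058-45837307 on the plus strand (Hspb8), chr8:50080264-50080513 on the plus strand (Hspa8), chr12:10427118-10427367 on the plus strand (Hsph1) and chr3:38452766-38453015 on the plus strand (Hspa5).
Hspb1: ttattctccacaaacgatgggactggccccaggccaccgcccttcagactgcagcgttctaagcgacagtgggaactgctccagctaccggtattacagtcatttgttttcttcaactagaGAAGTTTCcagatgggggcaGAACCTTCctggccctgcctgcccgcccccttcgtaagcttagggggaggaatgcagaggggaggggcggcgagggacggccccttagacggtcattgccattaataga
Hspb8: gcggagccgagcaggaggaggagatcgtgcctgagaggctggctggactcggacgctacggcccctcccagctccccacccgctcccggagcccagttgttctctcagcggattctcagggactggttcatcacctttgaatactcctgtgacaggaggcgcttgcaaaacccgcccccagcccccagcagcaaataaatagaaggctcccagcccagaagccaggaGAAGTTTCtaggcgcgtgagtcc
Hspa8: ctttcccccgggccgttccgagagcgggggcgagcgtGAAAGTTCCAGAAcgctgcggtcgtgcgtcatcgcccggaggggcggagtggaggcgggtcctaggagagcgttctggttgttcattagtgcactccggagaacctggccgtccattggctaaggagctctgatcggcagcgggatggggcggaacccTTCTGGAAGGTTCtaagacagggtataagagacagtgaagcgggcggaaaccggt
Hsph1: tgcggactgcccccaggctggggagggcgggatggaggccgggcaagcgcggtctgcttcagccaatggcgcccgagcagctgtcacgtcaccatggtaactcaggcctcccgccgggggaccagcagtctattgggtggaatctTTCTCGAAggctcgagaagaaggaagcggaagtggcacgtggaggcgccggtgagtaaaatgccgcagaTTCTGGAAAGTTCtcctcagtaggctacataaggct
Hspa5: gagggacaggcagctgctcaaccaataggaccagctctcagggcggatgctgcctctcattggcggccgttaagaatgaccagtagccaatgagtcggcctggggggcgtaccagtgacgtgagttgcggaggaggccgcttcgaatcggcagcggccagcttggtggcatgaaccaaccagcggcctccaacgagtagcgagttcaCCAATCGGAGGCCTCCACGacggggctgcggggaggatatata

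Searched on both strands, the heat shock element with 3 units (GAA, TTC and GAA with NN between neighbours) was in 2 of the 8 member promoters, with 2 matches in Hspa8 and 1 in Hsph1. It was in 0.663% of all 33469 promoters of the table. Its shorter form with 2 facing units, GAANNTTC, which lies inside the longer motif, was in 6 of 8 members and in 7.23% of all promoters. In Hspb1 the facing units began 129 and 109 bases before the start, and in Hspb8 they began 23 bases before it. The back-to-back form TTCNNGAA, also contained in the longer motif, was in Hspa8 and Hsph1 (7.48% of all promoters). The endoplasmic reticulum stress element (CCAAT, 9 bases of any kind, then CCACG) was in Hspa5, 43 bases before the start, and in 0.0657% of all promoters. Hspa1a, for which a promoter was read but no probe matched, held none of these letters in this window. Its entry overlaps Hspa1l in the RefSeq annotation, and whether this window lies before the start that the gene uses was not tested. A match is a description of letters and not of a site in use.

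A level below is the log2 of a probe's processed signal over the 75th percentile of the above-background probes of the same array, so that 1 unit is a doubling, and levels are compared between rats and never between probes. Between 14676 and 18196 probes were well above background per array. There were 3 slides. All TBI rats and TBI+Prozac replicate 1 were hybridised on the first and the other 8 drug-treated rats on the second, while the third carried only Sham and was scanned on another day. Injury and slide therefore cannot be told apart in a comparison with Sham. The share of all kept probes whose groups do not overlap is not given here. A lack of overlap between rats is therefore described below and not read as a result. TBI and TBI+Imipramine or TBI+Zoloft shared no slide either, and only TBI+Prozac replicate 1 linked them. With 2 or 3 rats a group, the number of arrays limits the precision of every value.

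The sample titles give the tissue as whole hippocampus. Of 7 hippocampal neuron markers 5 were kept and above background on every array, including Snap25 and Nrgn. Rbfox3 had no matching probe and Prox1 was too dim. No other region was compared, so whether these markers set the hippocampus apart was not tested. None of these 5 passed the test in TBI vs. Sham. In whole tissue, fewer cells of a type and less RNA per cell cannot be told apart.

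Hspb1, the small heat shock protein also known as HSP27 (HSP25 in rodents), showed the largest difference among the members. Its level was -2.48 and -0.86 in the Sham rats and 2.77, 3.77 and 2.84 in the TBI rats. It was 3.57, 3.32 and 3.28 with imipramine, 3.38, 2.51 and 2.77 with Prozac, and 2.73, 3.13 and 4.52 with Zoloft. All 12 injured rats stood far above both Sham rats, and the 4 injured groups overlapped each other. The highest level of all belonged to TBI+Zoloft replicate 3, and the Sham rats differed between themselves more than the rats of most injured groups did.

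Hspb1 rose by 4.80 on the log2 scale in TBI vs. Sham (SE 0.54, 95% interval 3.62 to 5.97, adjusted p = 2.6e-04 by limma), a 27.8-fold difference. Because the Sham rats differed, the difference was 3.99 without Sham replicate 1 and 5.60 without Sham replicate 2, with adjusted p = 0.0050 and 4.4e-04. Compared with Sham, Hspb1 was also higher in TBI+Imipramine by 5.06, in TBI+Prozac by 4.56 and in TBI+Zoloft by 5.13 (adjusted p = 1.5e-04, 6.3e-04 and 3.3e-04). These 4 comparisons share the same Sham rats.

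Hspb8, the small heat shock protein that works with Bag3, was the other member that rose after injury. Its level was -3.86 and -3.87 in Sham and -2.40, -2.06 and -2.41 in TBI. It was -1.89, -1.93 and -1.65 with imipramine, -1.89, -2.63 and -2.30 with Prozac, and -2.77, -2.84 and -2.10 with Zoloft. The Sham rats were nearly equal and lay below all 12 injured rats, and every imipramine rat was above every TBI rat and every Zoloft rat. Hspb8 rose by 1.58 in TBI vs. Sham (SE 0.25, 95% interval 1.04 to 2.11, adjusted p = 0.0015), which is 2.99-fold.

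Against Sham, Hspb8 was higher by 2.04 with imipramine (adjusted p = 2.6e-04), by 1.59 with Prozac (adjusted p = 0.0022) and by 1.30 with Zoloft (adjusted p = 0.011). The Zoloft difference did not pass the test without Sham replicate 1 (1.30, adjusted p = 0.079) or without Sham replicate 2 (1.29, adjusted p = 0.065), nor with only these groups in the fit (adjusted p = 0.095). Ordered by group mean, Hspb8 ran from Sham (-3.87) through TBI+Zoloft (-2.57), TBI (-2.29) and TBI+Prozac (-2.27) to TBI+Imipramine (-1.82). No neighbours among the 4 injured groups in that order differed past the test.

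**Figure D1:**
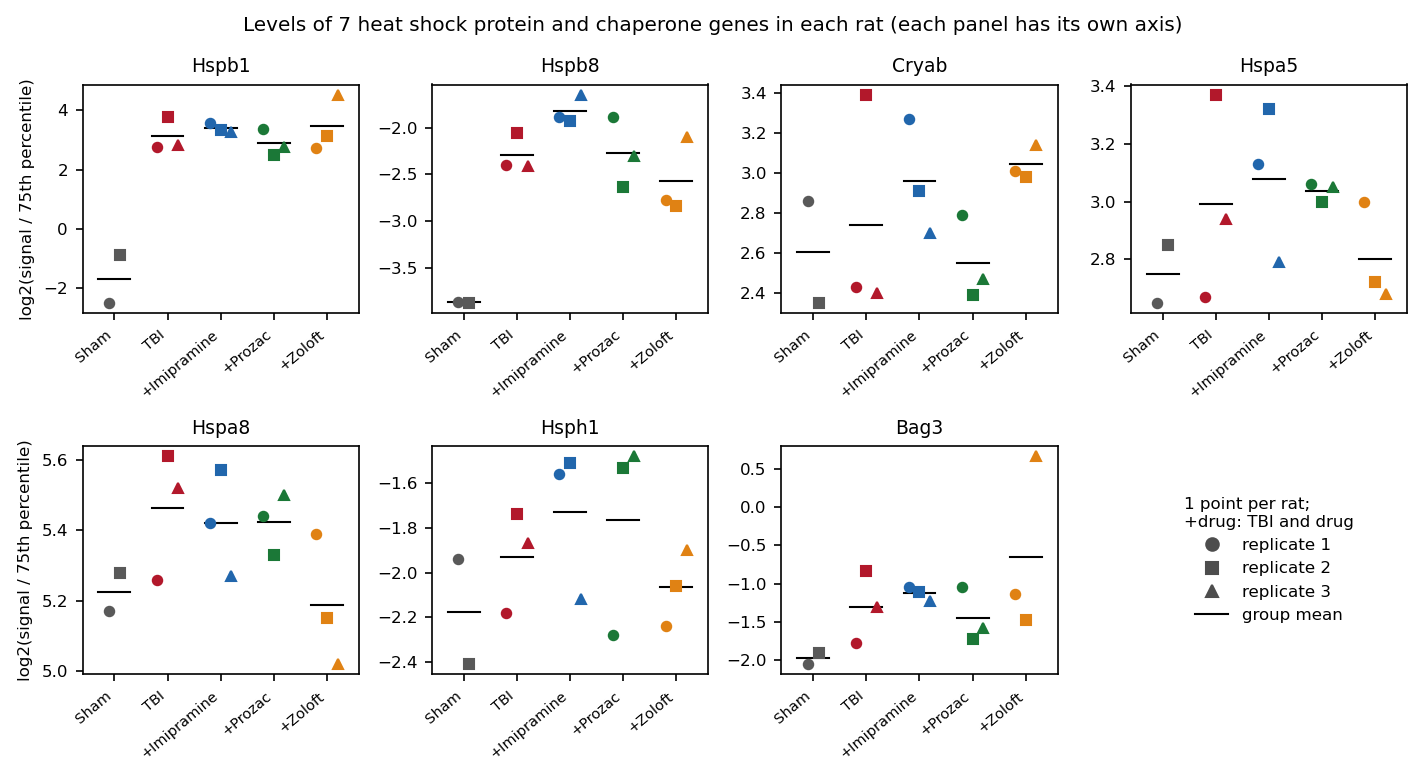
Level of each measured gene in each rat, on the vertical axis as log2 of the signal over the array's 75th percentile, by group on the horizontal axis; each point is 1 rat, its shape gives the replicate number, and the bar is the group mean. Both Sham rats lie below all 12 injured rats for Hspb1, Hspb8 and Bag3, of which Bag3 did not pass the test in TBI vs. Sham. The share of all kept probes that separate this way is not given. Hspb1 spans the widest range, and TBI+Zoloft replicate 3 stands at 0.66 for Bag3.

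Cryab (alpha B-crystallin), the third small heat shock protein measured, was 2.86 and 2.35 in Sham, 2.43, 3.39 and 2.40 in TBI, 3.27, 2.91 and 2.70 with imipramine, 2.79, 2.39 and 2.47 with Prozac, and 3.01, 2.98 and 3.14 with Zoloft. The TBI rats spanned both Sham values, with TBI replicate 2 the highest of all 14. The difference TBI minus Sham was 0.13 (SE 0.28, 95% interval -0.48 to 0.75, adjusted p = 0.79).

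The interval for Cryab lies wholly below that of Hspb1 and that of Hspb8. All 3 Zoloft rats were above both Sham rats for Cryab, a difference of 0.44 (SE 0.28, adjusted p = 0.40) that did not pass the test.

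Among the HSP70 proteins, Hspa5 was 2.65 and 2.85 in Sham and 2.67, 3.37 and 2.94 in TBI. With drugs it was 3.13, 3.32 and 2.79 (imipramine), 3.06, 3.0 and 3.05 (Prozac), and 3.0, 2.72 and 2.68 (Zoloft). The groups overlapped except that every Prozac rat lay above both Sham rats, and TBI minus Sham was 0.24 (SE 0.21, 95% interval -0.21 to 0.69, adjusted p = 0.47). Hsph1, the HSP110 that exchanges nucleotide on HSP70, was -1.94 and -2.41 in Sham and -2.18, -1.74 and -1.87 in TBI. Its drug-treated rats ranged from -2.28 to -1.48, and TBI minus Sham was 0.24 (SE 0.27, 95% interval -0.34 to 0.82, adjusted p = 0.59).

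Hspa8 gave a different answer by probe. The brightest probe, A_64_P023392, was 5.17 and 5.28 in Sham, 5.26, 5.61 and 5.52 in TBI, 5.42, 5.57 and 5.27 with imipramine, 5.44, 5.33 and 5.50 with Prozac, and 5.39, 5.15 and 5.02 with Zoloft. It spanned 5.02 to 5.61 over all 14 rats, and TBI minus Sham was 0.24 (SE 0.16, 95% interval -0.10 to 0.58, adjusted p = 0.32). The next probe, A_64_P061286, gave a difference of 0.08 (SE 0.18, adjusted p = 0.80).

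The dimmer pair of Hspa8 probes followed another pattern. A_64_P096381 was 0.45 and 0.38 in Sham, 1.08, 1.32 and 1.07 in TBI, 1.61, 1.81 and 1.2 with imipramine, 1.45, 1.46 and 1.45 with Prozac, and 0.32, 0.38 and 0.01 with Zoloft. A_64_P014723 was -0.60 and -0.41 in Sham, then -0.00, 0.29 and -0.07 in TBI, 0.54, 0.56 and 0.17 with imipramine, 0.56, 0.31 and 0.32 with Prozac, and -0.70, -0.66 and -0.89 with Zoloft. With both probes the TBI, imipramine and Prozac rats lay above every Sham rat, whereas no Zoloft rat did.

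Both dimmer Hspa8 probes rose in TBI vs. Sham, by 0.74 for A_64_P096381 (SE 0.18, adjusted p = 0.015) and by 0.58 for A_64_P014723 (SE 0.17, adjusted p = 0.035). Neither passed the test without Sham replicate 1 (adjusted p = 0.071 and 0.20), without Sham replicate 2 (0.10 and 0.088) or without TBI replicate 2 (0.054 and 0.12), nor with only these groups in the fit (0.064 and 0.16). All 4 probes carry the same Hspa8 transcript accession in the array's annotation. Hspa8 has many processed pseudogenes in rodent genomes, and probe sequences were not used here, so which transcript each probe read was not tested.

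**Figure D2:**
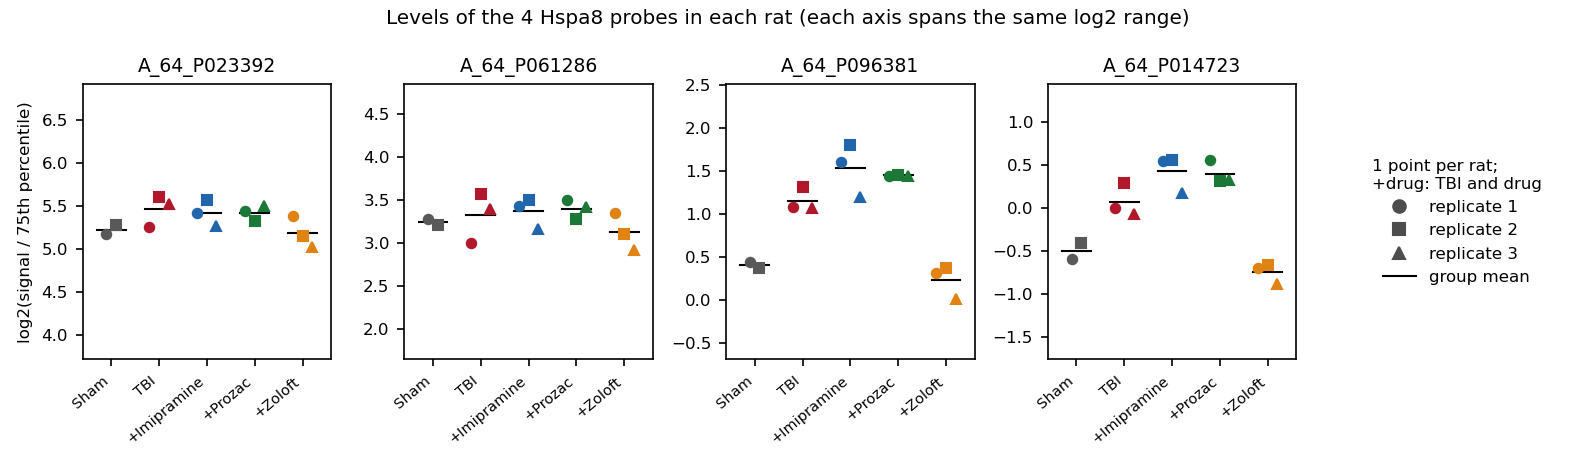
Level of each of the 4 Hspa8 probes in each rat, on the vertical axis as log2 of the signal over the array's 75th percentile with the same span in every panel, by group; points are rats and bars are group means. The left pair of probes is nearly level across groups, and the right pair is high in TBI, imipramine and Prozac rats and low in Sham and Zoloft rats, at 0.01 to 0.38 for A_64_P096381 with Zoloft.

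Bag3, the HSP70 cochaperone that joins Hspb8, was -2.05 and -1.90 in Sham and -1.77, -0.84 and -1.30 in TBI. It was -1.04, -1.11 and -1.23 with imipramine, -1.04, -1.72 and -1.58 with Prozac, and -1.13, -1.48 and 0.66 with Zoloft. All 12 injured rats were above both Sham rats, and TBI+Zoloft replicate 3 was far above the rest. TBI minus Sham was 0.67 (SE 0.49, 95% interval -0.39 to 1.73, adjusted p = 0.39), and Zoloft minus Sham was 1.33 (SE 0.49, adjusted p = 0.13), so neither passed the test.

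TBI+Zoloft replicate 3 exceeded the mean of the other Zoloft rats by 1.96 for Bag3, by 1.59 for Hspb1 and by 0.71 for Hspb8, and by 0.15 for Cryab. It lay below them for Hspa5 (-0.18) and for every Hspa8 probe (-0.34 to -0.22). The same rat had the highest summed level of the 4 kept endothelial markers, 0.75 against -0.43 to 0.46 in the other 13 rats. These markers did not move together: Flt1 was highest in this rat (-2.65), whereas Cldn5 was the lowest of any injured rat (-0.69). This rat also had the lowest summed microglia and macrophage level of any injured rat, 1.93. Without it, Zoloft minus TBI for Bag3 went from 0.66 to 0.00, for Hspb1 from 0.33 to -0.20 and for Hspb8 from -0.28 to -0.52, none of which passed the test. Without it, Bag3 was higher in imipramine than in Sham by 0.85 with adjusted p = 0.034, against 0.23 with all rats.

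In all, 2 of the 7 measured members (Hspb1 and Hspb8) passed the test in TBI vs. Sham, both higher, where 16.6% of all 17322 kept probes were called and 8.30% were called higher. All 7 members had a difference above 0, with a median of 0.24 against 0.0015 over all kept probes. Against Sham the same 2 members were called with each drug, where 19.8% (imipramine), 11.7% (Prozac) and 4.16% (Zoloft) of kept probes were called higher. With quantile normalization the share of those calls that were higher went from 84.6% to 48.9% for imipramine, from 78.8% to 51.8% for Prozac and from 69.8% to 54.1% for Zoloft. In the quantile-normalized values Hspb1 and Hspb8 were still called higher with each of the 3 drugs.

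**Figure D3:**
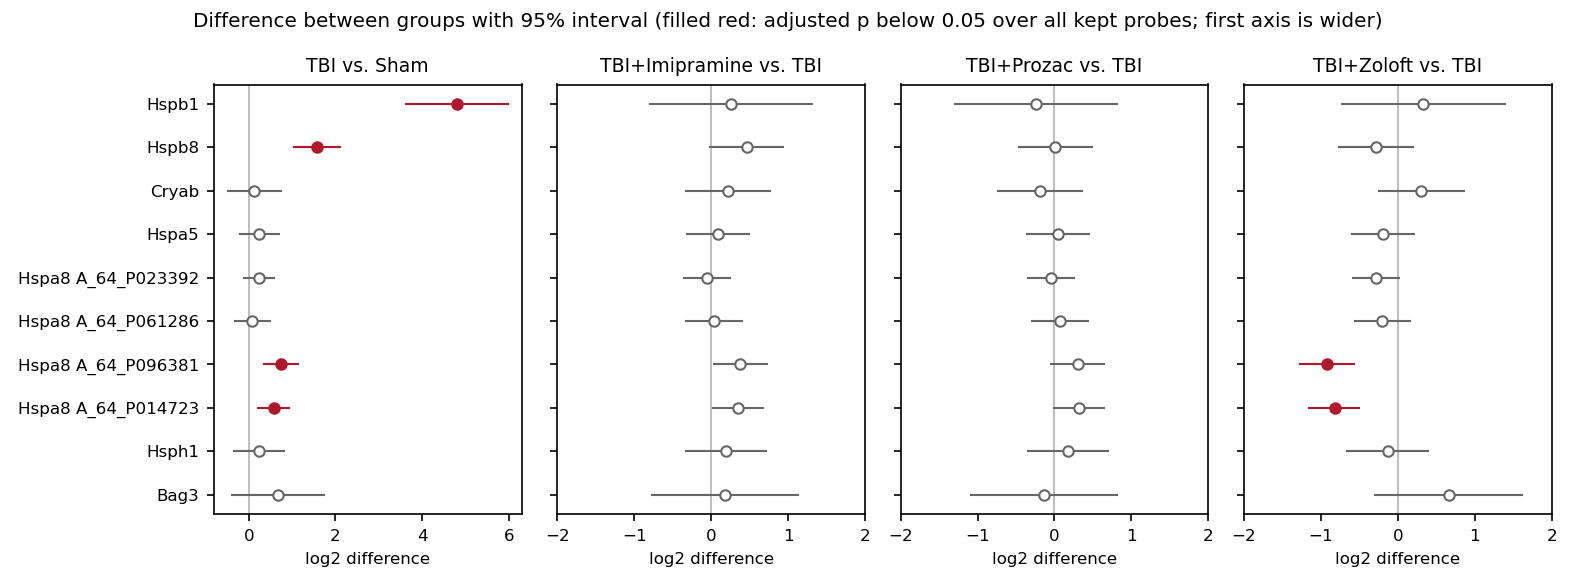
Log2 difference between groups for each of the 10 probes in 4 comparisons, with the 95% interval as a line; filled red points passed the adjusted threshold over all kept probes, and the horizontal axis of the TBI vs. Sham panel is wider than the rest. Hspb1 at 4.80 and Hspb8 at 1.58 stand apart in TBI vs. Sham, and in the drug panels only the dimmer pair of Hspa8 probes with Zoloft, at -0.92 and -0.82, is filled.

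No drug moved any of the 7 members past the test when compared with TBI (0 of 7 for each drug by limma), where 2.85% of kept probes were called with imipramine, 0.00577% with Prozac and 1.38% with Zoloft. At an unadjusted p under 0.05, limma again gave 0 of 7 for each drug. The methods' t-test gave 1 of 7, Hspb8, with imipramine before adjustment and 0 of 7 for each drug after Benjamini-Hochberg. The shares above hold for the adjusted threshold and are no yardstick for the unadjusted counts. The median difference over members was 0.20 with imipramine, -0.04 with Prozac and -0.13 with Zoloft, against 0.199, 0.146 and 0.0146 over all kept probes. For imipramine the members thus moved by as much as the middle of the array did.

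For Hspb1 the difference from TBI was 0.26 with imipramine (95% interval -0.79 to 1.31), -0.24 with Prozac (-1.29 to 0.81) and 0.33 with Zoloft (-0.72 to 1.39). For Hspb8 it was 0.47 with imipramine (-0.01 to 0.94, adjusted p = 0.27), 0.01 with Prozac (-0.46 to 0.49) and -0.28 with Zoloft (-0.76 to 0.20). These intervals leave room for Hspb1 to be more than doubled with imipramine or Zoloft, or more than halved with Prozac, and they are narrower for Hspb8. None comes near the size of the TBI vs. Sham difference of Hspb1.

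The dimmer pair of Hspa8 probes, which do not stand for the gene under the brightest-probe rule, fell with Zoloft compared with TBI, by 0.92 (A_64_P096381, SE 0.16, adjusted p = 0.027) and by 0.82 (A_64_P014723, SE 0.15, adjusted p = 0.030), where 0.219% of kept probes were called lower. All 3 Zoloft rats lay below all 3 TBI rats with both probes. The brighter pair did not pass the test, with differences of -0.28 (95% interval -0.58 to 0.02) and -0.20 (-0.56 to 0.16). Both calls were lost with the slide as a fixed block (-0.92 and -0.58, each with adjusted p = 1), in which only TBI+Prozac replicate 1 ties the slides together. They were also lost without TBI replicate 1 (adjusted p = 0.065 and 0.068), without TBI replicate 2 (0.070 and 0.076) and when any of the 3 Zoloft rats was left out (0.051 to 0.11). For A_64_P014723 leaving out imipramine replicate 1 or 2, which alters the shared spread alone, gave 0.052. Testing all probes without a filter gave 0.085 and 0.091.

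The drugs were given at the same dose and time, so they can be set against each other. By limma's F test over the 3 drugs, 0 of 7 members were called, against 3.18% of kept probes at the same adjusted threshold. At an unadjusted p under 0.05 that test gave 1, Hspb8 (adjusted p = 0.13), a count to which that share does not apply. Pairs of drugs were compared for each of the 10 probes, with p adjusted over all kept probes and the 3 pairs together. Hspb8 was higher with imipramine than with Zoloft in all 3 rats, by 0.75 (SE 0.22, 95% interval 0.27 to 1.23), with an adjusted p = 0.10 that did not pass. Without TBI+Zoloft replicate 3 this Hspb8 difference was 0.98, with adjusted p = 0.032 by limma (over probes alone), against 0.066 with all rats. Cryab differed between Prozac and Zoloft by -0.49 (SE 0.25, 95% interval -1.04 to 0.06, adjusted p = 0.36), although no rat of these groups overlapped. For Hspb1 the intervals were -0.55 to 1.55 (imipramine minus Prozac), -1.13 to 0.98 (imipramine minus Zoloft) and -1.63 to 0.48 (Prozac minus Zoloft).

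The dimmer Hspa8 probes were higher with imipramine than with Zoloft, by 1.30 and 1.17 (SE 0.16 and 0.15), and higher with Prozac than with Zoloft, by 1.22 and 1.15, with adjusted p = 0.016 in each case, where 2.47% and 2.03% of kept probes were called in these pairs and 0.0635% between imipramine and Prozac. Fluoxetine and sertraline, both serotonin reuptake inhibitors, thus differed at these probes, while imipramine and Prozac differed by 0.09 (95% interval -0.26 to 0.43) and 0.03 (-0.30 to 0.35). All imipramine and Zoloft rats were on the second slide, so a fit of that slide alone could not change their differences of 1.30 and 1.17. Only the spread and the adjustment changed there (adjusted p = 0.043 and 0.041). Prozac minus Zoloft within that slide was 1.22 and 1.06 with adjusted p = 0.11 for both. Adjusted over probes alone, imipramine against Zoloft did not pass for either Hspa8 probe without imipramine replicate 1 (0.056 and 0.068), without imipramine replicate 2 (0.063 for both) or with only these groups in the fit (0.078 for both). Prozac against Zoloft did not pass for either probe without Prozac replicate 1 (0.063), without Zoloft replicate 2 (0.050), with the slide as a fixed block (0.063), without a filter on dim probes (0.060) or with only these groups in the fit (0.092). The brighter Hspa8 probes differed by 0.24 between imipramine and Zoloft (95% intervals -0.07 to 0.54 and -0.12 to 0.60).

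Other chaperone genes were taken as lists by family, 82 genes in all, of which 78 matched a probe and 74 were kept. In TBI vs. Sham 13 of the 74 were called (17.6%, against 16.6% of all kept probes), 11 higher and 2 lower, with a median of 0.16. That share is close to that of the whole array, and the count was 6 without Sham replicate 1, 5 without Sham replicate 2 and 7 without TBI replicate 2.

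Of the 15 kept genes of endoplasmic reticulum folding and its stress response, 5 were called higher after injury and 0 lower. Over all kept probes 8.30% were called higher. Of the 15 genes, 13 had a difference above 0 (median 0.48). Serpinh1 (HSP47, the collagen chaperone) rose by 1.40 (SE 0.28, adjusted p = 0.0065), from -0.15 and -0.10 in Sham to between 0.89 and 1.79 in TBI. Creld2 rose by 0.91, Sdf2l1 by 0.88 and P4hb, a protein disulfide isomerase of the same list that the naming rule left out and that is named here after its values were seen, by 0.68 (adjusted p = 0.043, 0.037 and 0.023). Canx (calnexin) is among these 5 called genes, but its probe was not well above background on either Sham array. It passed background on 1 of 3 TBI arrays only, so no fold is given. Its probe was kept only because every imipramine array had it well above background. Hspa5, the main chaperone of this compartment, was not among the genes that rose.

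Of the 10 kept chaperonin genes, which build the cytosolic TRiC ring and its mitochondrial counterpart, 3 were called higher, against 8.30% of all kept probes. A difference above 0 was found for 9 of them (median 0.46). Cct4 rose by 0.83, Cct3 by 0.60 and Cct5 by 0.57 (SE 0.14, 0.16 and 0.16; adjusted p = 0.0027, 0.023 and 0.031). Of the other HSP70 and HSP110 genes, 1 of 6 was called, where 16.6% of all kept probes were called in either direction. Hspa2 rose by 1.30 (SE 0.24, adjusted p = 0.0037), from -2.82 and -2.51 in Sham to between -1.52 and -1.11 in TBI.

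Of the other small heat shock proteins, 3 of 6 were kept. Hspb9 was at least 4.55-fold higher in TBI than in Sham (adjusted p = 5.8e-05 by limma), where it was not well above background on either array. Its probe was kept only through the injured groups, where it was higher. The filter thus favoured this difference, and Hspb9 is part of the counts of other chaperone genes called against Sham. Hspb2 fell by 1.06 (SE 0.18, adjusted p = 0.0025), from -0.80 and -0.71 in Sham to between -2.13 and -1.53 in TBI, and Hspb6 gave -0.03. The Hspb2 gene overlaps Cryab in the RefSeq annotation, and Cryab itself did not pass the test in TBI vs. Sham (0.13).

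Of 16 J proteins 2 were called, where 16.6% of all kept probes were called. Dnajc3 rose by 0.85 (adjusted p = 0.036) and Dnajb6 fell by 0.73 (adjusted p = 0.021). By limma 0 of 12 HSP90 and cochaperone genes, 0 of 8 nucleotide exchange and BAG genes and 0 of 4 heat shock factor genes were called. Beside the share of 16.6%, counts in families this small are not read as results about them. At an unadjusted p under 0.05 these families had 1, 2 and 0, to which that share does not apply. Their medians were 0.17, -0.03 and -0.02, and 11 of the 12 HSP90 genes had a difference above 0. Hsf1, the factor named above, was not called. The transcript of a factor does not show its activity.

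**Figure D4:**
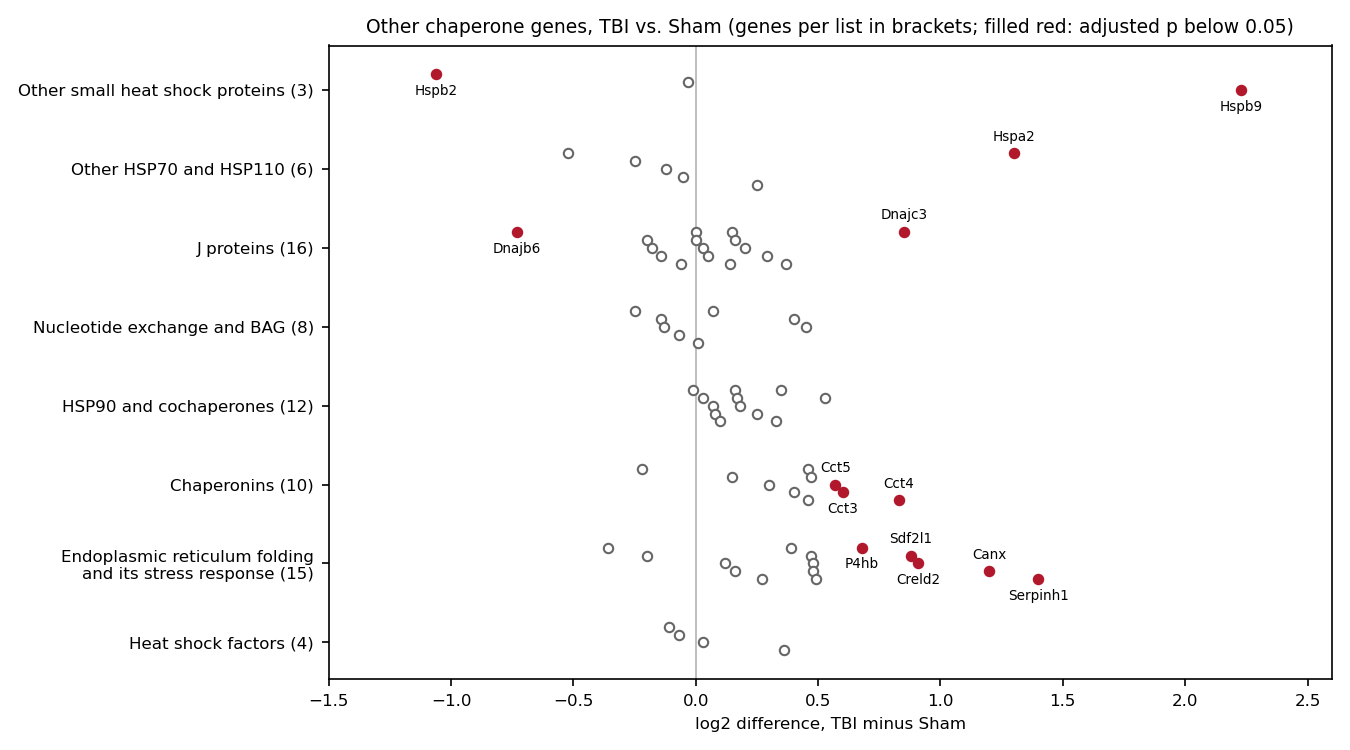
Log2 difference TBI minus Sham of each kept gene of the other chaperone families, 1 point per gene and 1 row per family with its number of genes; vertical jitter carries no value, and filled red points with names passed the adjusted threshold over all kept probes. The 13 named genes include 5 of endoplasmic reticulum folding and 3 chaperonins on the right, and Hspb2 at -1.06 and Dnajb6 at -0.73 on the left.

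With drugs compared with TBI, 1 of the 74 other chaperone genes was called with imipramine, 0 with Prozac (2 at an unadjusted p under 0.05 by limma) and 1 with Zoloft, shares of 1.35%, 0% and 1.35% against 2.85%, 0.00577% and 1.38% of all kept probes. Hspb2 was higher with imipramine by 0.68 (SE 0.16, adjusted p = 0.044), from a range of -2.13 to -1.53 in TBI to a range of -1.24 to -0.91. None of the 74 genes was called in this comparison with quantile normalization, with the other scalings, with normexp or without a filter. The same held with the slide as a fixed block or with only these groups in the fit. All kept probes shifted by a median of 0.199. Cct5 fell with Zoloft by 0.69 (SE 0.14, adjusted p = 0.040), to between -1.05 and -0.60 from between -0.23 and 0.07 in TBI. When each rat was left out in turn, the count was 0 to 2 with imipramine and 0 to 1 with Zoloft. The median over the 74 genes was 0.16 with imipramine, 0.10 with Prozac and -0.08 with Zoloft.

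Against Sham, which all these comparisons share, 21 of the 74 were called with imipramine (28.4%, against 23.4% of kept probes), 14 with Prozac (18.9%, against 14.9%) and 2 with Zoloft (2.7%, against 5.95%). The genes called with Zoloft were Hspa2, higher by 1.14 (adjusted p = 0.017), and Hspb9, at least 4.99-fold higher. Hspb9 is counted with each drug, although its probe was kept only through the injured groups, so the filter favoured it. All 21 genes called with imipramine were higher than in Sham, as were 13 of the 14 called with Prozac.

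By the F test over the 3 drugs, 4 of the 74 were called (5.41%, against 3.18%): Canx, Cct2, Cct4 and Cct5. Canx was well above background on every array of the imipramine group only. It thus passed the filter only through the group where it was highest. Cct5 was higher with imipramine than with Zoloft by 0.97 and with Prozac than with Zoloft by 0.87 (adjusted p = 0.020 and 0.023 by limma, over probes and pairs). The count of 4 went to 0 without TBI+Zoloft replicate 2.

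By the F test Neurod6 and Csf1r were the only cell type markers called among the drugs. Both were lower with Zoloft, as were the dimmer Hspa8 probes and Cct5. Not all lists ran that way. Prozac minus Zoloft was above 0 for 5 of 5 neuron markers, but for 0 of 2 neutrophil and 1 of 4 endothelial markers. Of the 5 kept hippocampal neuron markers, Neurod6 was called by the F test over the 3 drugs (adjusted p = 0.023), and it was lower with Zoloft than with Prozac (difference 0.65) and imipramine (0.52), with adjusted p = 0.024 and 0.045 over probes and pairs. Its level was 0.69, 0.80 and 0.63 in the Zoloft rats and 1.06 to 1.46 in the other drug-treated rats. Compared with Sham it fell with Zoloft by 0.65 (adjusted p = 0.012). The summed level of the neuron list was 3.88 to 4.32 with Zoloft, 4.18 to 4.34 with imipramine and 4.37 to 4.60 with Prozac.

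Of the 6 microglia and macrophage markers, Csf1r was called by the F test (adjusted p = 0.045). It ranged from -2.36 to -1.64 with Zoloft and from -1.34 to -0.89 with the other drugs, and no pair of drugs passed over probes and pairs (adjusted p = 0.051 for Prozac and 0.060 for imipramine against Zoloft). The summed level of that list was 1.93 to 2.38 with Zoloft, 2.43 to 2.65 with imipramine and 2.14 to 2.73 with Prozac. The part of these markers in the differences of Hspa8 and the chaperonins between drugs was not tested.

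Cell type markers moved with injury as well. Of 6 astrocyte markers, Gfap rose by 1.88 (adjusted p = 0.014) and the other 5 were not called. Most of the list lay below 0: Aldh1l1 (-0.68), Gja1 (-0.63), Slc1a3 (-0.24) and Aqp4 (-0.07), with Slc1a2 at 0.19. The median of the list was -0.15, and 2 of the 6 were above 0. The summed level of the list was 4.60 to 4.81 in Sham and 4.34 to 5.03 in TBI. Of 6 microglia and macrophage markers, Cd68 rose by 1.67 and Itgam by 1.05 (adjusted p = 0.026 and 0.025), and the sum went from 1.47 to 1.95 in Sham to 2.26 to 2.45 in TBI. Both kept neutrophil markers, S100a8 and S100a9, rose by 3.33 and 4.0 (adjusted p = 0.0089 and 0.0014), with sums of -3.78 to -3.74 in Sham and -1.44 to 1.42 in TBI, while Mpo had no matching probe and Mmp8 was too dim. S100a8 was well above background on 1 of 2 Sham arrays and on every injured array. Its probe was kept only through the injured groups, so the filter favoured its difference, and 3.33 rests partly on a dim Sham value.

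Of 5 endothelial markers Tek was too dim, and of the 4 kept Cldn5 rose by 0.63 (adjusted p = 0.012), and none of 5 oligodendrocyte or 4 matched red blood cell markers was called. The summed level of the endothelial list was -0.43 to -0.40 in Sham and 0.13 to 0.32 in TBI. No marker of these lists was called with any drug compared with TBI. The part of any of these markers in the rise of Hspb1 and Hspb8 was not tested. Of 6 choroid plexus markers, 2 were kept and neither was called, and Kl, Kcnj13, Otx2 and Clic6 were too dim.

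Genes whose levels across the 14 rats ran closest to a member, by the root mean square difference after centring each gene, are given as a description. For Hspb1 they were H19 (0.30), Timp1 (0.36) and Tubb6 (0.37), against a spread of 1.81 of Hspb1 around its own mean. For Hspb8 they were Cd63 (0.19), Myl12b (0.21) and the HSP70 gene Hspa2 (0.21), against 0.66. For Bag3 they were Adamts9, Pmepa1 and Ier3 (0.19, 0.19 and 0.21, against 0.64).

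The likeness runs over 10197 named genes. For the dimmer Hspa8 probes Cct5 and Mpv17 were among the closest 3 in each case, at 0.15 to 0.17. For Hspa5 Dnaja1, a J protein of HSP70, was among the closest 3 (0.09, against 0.22). For Cryab the closest was Htra1, a secreted protease (0.15, against 0.33).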

How the data were processed

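The authors' scanner files, made with Agilent Feature Extraction 11.5.1.1, hold 1-colour spot intensity as deposited, already background-subtracted by that software (processed signal). The deposited series table holds the authors' scaled intensity. With 1 fitted constant per array taken out, it matched the processed signal within 5% for 99.8% to 99.9% of the probes compared per array. Those were the well-above-background probes above the table's lowest value. Because the constant was fitted, this match does not compare the authors' scaling with the scaling used here. Here outlier-flagged and control spots were left out, spots of a probe averaged, and log2 of the signal over the 75th percentile of above-background probes taken. A probe was kept if all arrays of any 1 group had it well above background (17322 of 30367). Probes were named through RefSeq accessions (18643 have a symbol, 11902 of them kept). In 1 fit of all 14 arrays, limma 3.58.1 (R 4.3.3) tested each contrast two-sided, with Benjamini-Hochberg adjustment over kept probes and a threshold of 0.05. The methods' t-test, with its fold limit of 1.2, was an alternative. The script was tested on simulated data.

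Scaling, filter, background correction (normexp with an offset of 50 on median signals, since the files hold no mean signal), probe choice, slide and replicate blocks and leaving out each rat were alternatives. All members are named, and of the other lists the called genes. The members and lists were chosen with earlier results of these data known. The miRNA arrays were not used here.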

Additional observations from a re-analysis of the deposited data

Results flagged for a closer look

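These are differences between drugs, given after the same injury at the same dose and time, that passed limma's test with p adjusted over all kept probes and the 3 pairs of drugs. Hspa8 probe A_64_P096381 was higher with imipramine than with Zoloft by 1.30 (adjusted p = 0.016) and with Prozac than with Zoloft by 1.22 (adjusted p = 0.016). Hspa8 probe A_64_P014723 gave 1.17 and 1.15 in the same pairs (adjusted p = 0.016 for both). In all 3 rats of each group the levels with both probes lay above those of every Zoloft rat.

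Among the chaperonins, Cct5 was higher with imipramine than with Zoloft by 0.97 (adjusted p = 0.020) and with Prozac than with Zoloft by 0.87 (adjusted p = 0.023). Cct4 gave 0.74 (adjusted p = 0.024) and 0.69 (adjusted p = 0.029). Canx gave 1.05 between imipramine and Zoloft (adjusted p = 0.044), but its probe was not well above background on any Zoloft array. Its fold is therefore a lower bound of 1.32. The probe was kept only through the imipramine group, where it was highest, so the filter favoured this difference. The search for a rat that stands apart was made only in groups of 4 or more, so it was not run on these groups of 2 or 3.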

How the results depend on the processing

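Hspb1 and Hspb8 kept their direction in every comparison with Sham under all alternatives, and no called difference of a member reversed. The 2 members called in TBI vs. Sham, and in Prozac and Zoloft vs. Sham, went to 0 with the methods' t-test after Benjamini-Hochberg, which called 0, 1 and 0 of all kept probes in these comparisons. In imipramine vs. Sham that test called 2 members, but they were Hspb8 (adjusted p = 0.033) and Bag3 (0.047), and Hspb1 was not called (0.053). For Zoloft vs. Sham the count was 1 with only the groups compared in the fit, and 1 to 2 when each rat was left out. In imipramine vs. TBI the unadjusted t-test called 1 member against 0, and among the drugs 1 was called against 0 when the Hspa8 probes were averaged.

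Of the other chaperone genes, the 13 called in TBI vs. Sham became 22 with quantile normalization, 21 with the 75th percentile of all probes and with the series table, 6 without a filter and with only the groups compared, 0 with the t-test after adjustment, and 5 to 19 when each rat was left out. The 1 called in imipramine vs. TBI became 0 with quantile, all-probe or median scaling, normexp, no filter, the series table, a fixed slide block, only the groups compared or the adjusted t-test, 4 with a random slide block, 9 with the unadjusted t-test and 0 to 2 when each rat was left out. In Prozac vs. TBI the unadjusted t-test gave 1 against 0. The 1 called in Zoloft vs. TBI became 5 with quantile normalization, 3 with all-probe or median scaling or the series table, 2 with a random slide block, 4 with the unadjusted t-test, 0 without a filter, with a fixed slide block, only the groups compared or the adjusted t-test, and 0 to 1 when each rat was left out. Among the drugs, the 4 called became 2 with all-probe or median scaling, the series table, a fixed slide block, only the groups compared or averaged probes, 1 with normexp, 0 without a filter or within the second slide, and 0 to 5 when each rat was left out.

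Same-numbered rats did not deviate together (r from -0.23 to 0.23 over 26 pairs, mean -0.013, against -0.25 to 0.25 for other numbers), so the numbers do not pair them. With the replicate number as a block, Hspb1 rose by 4.73 and Hspb8 by 1.52 in TBI vs. Sham (adjusted p = 8.4e-04 and 0.0042), the count of other chaperone genes went from 1 to 0 in Zoloft vs. TBI and from 4 to 1 among the drugs.

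Over all kept probes the calls in TBI vs. Sham went from 2879 to 4467 with quantile normalization, those in imipramine vs. TBI from 494 to 50, and those in Zoloft vs. TBI from 239 to 803, with the share that was higher going from 99.0% to 88.0% in imipramine vs. TBI and from 84.1% to 58.4% in Zoloft vs. TBI. The median of all probes moved with imipramine vs. TBI by 0.199, and by -0.0146 with quantile normalization. The cause of these shifts was not tested.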
